A study of Mus musculus with 3 samples.

Results

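Keratinocytes of the hair follicle were examined in unwounded back skin of C57BL/6 mice, in the non-lesional library of a study of wound healing. Members were cell barcodes picked by their own counts of unique molecular identifiers (UMIs). A barcode needed at least 200 detected genes, at most 10% mitochondrial UMIs, at least 1% of UMIs from Krt5, Krt14, Krt17 and Krt79 together, and under 1% from the collagens Col1a1, Col1a2 and Col3a1. It also needed at least 5 UMIs of Krt17 and Krt79 together, or at least 1 UMI of Cd34. By this rule 413 of the 10297 kept barcodes of the library were members, a share of 4.01% (95% interval 3.64 to 4.41), out of 23384 kept barcodes in the series. They made up 57.4% of the 719 keratin-rich barcodes, and the remaining 306 keratin-rich barcodes served as the comparison.

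The mice were males of 7 to 9 weeks whose hair was in telogen, the resting stage, and full-thickness wounds of 1.0 by 0.5 cm were cut on their backs. There were 3 libraries: 1 from non-lesional skin, and 1 from the wound bed at each of day 2 and day 7. They were made with 10x droplet 3' chemistry after digestion with collagenase D and DNase1. The labels name no transgene and do not give the number of mice behind a library. With 1 library per group no test was possible, so every interval here is an exact one that covers counting error only.

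The hair follicle is an epidermal tube with an upper funnel that opens to the skin surface, a sebaceous gland beside it and, below the gland, the bulge, where slow-cycling stem cells are held. Krt79 is known as a keratin of the upper follicle and its canal, Krt17 as a keratin of the follicle's outer layers, and Cd34 and Lgr5 as genes of the bulge and the hair germ beneath it. Krt5, Krt14 and Krt15 are keratins of basal cells, and basal cells lose them as they move outward and take up the programs of spinous and granular layers.

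The members fell into 3 groups and an overlap. A Krt79 group had at least 5 Krt79 UMIs, in 276 barcodes (66.8% of members), of which 265 had no Cd34 and are used below. A Cd34 group had at least 1 Cd34 UMI, in 47 barcodes (11.4%), of which 36 had fewer than 5 Krt79 UMIs and are used below. The overlap of both was 11 barcodes. A Krt17-only group of 101 barcodes (24.5%) passed through Krt17 without either. Median depths were 13168 UMIs in the Krt79 group, 19716 in the Krt17-only group, 19731.5 in the Cd34 group, 15100 in the overlap and 16109.5 in the other keratin-rich barcodes. The library held 123088680 UMIs.

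The selecting genes separated the groups to very different degrees. Few barcodes lay near the Krt79 limit: of the keratin-rich barcodes 407 had 0 Krt79 UMIs, 28 had 1, 7 had 2, 1 had 3, 0 had 4 and 2 had 5. A Krt79 UMI was thus present below the limit too, in 15.8% of Krt17-only barcodes, and the Krt79 group had a median of 91.2 per 10000 UMIs (range 0.959 to 248). The limit on Krt17 and Krt79 together cut a continuum, with 17 barcodes at 4 UMIs and 9 at 5, and 106 barcodes between 5 and 49 beside 279 at 50 or more. Krt17 had a median of 6.71 per 10000 in the Krt17-only group and 122 in the Krt79 group. The Cd34 limit rested on single molecules, since 37 of 47 barcodes carried exactly 1 Cd34 UMI and the highest count was 9. A further 176 barcodes with 0.5 to 1% keratin UMIs would otherwise have qualified, and the collagen limit left out 34 keratin-rich barcodes. Krt5 and Krt14 also belong to the rule. A barcode with at most 4 UMIs of Krt17 and Krt79 can reach 1% keratin UMIs almost only through Krt5 and Krt14, which holds for the other keratin-rich barcodes and for most of the Cd34 group, so their high Krt5 and Krt14 follow from the choice. The rule thus favoured basal cells among the other keratin-rich barcodes. Contrasts with them in further genes of basal, spinous and granular layers are not free of that choice. Most Krt17-only barcodes also reached 1% mainly through Krt5 and Krt14, since the upper quartile of Krt17 there was only 17.2 per 10000 UMIs. The genes of the rule chose the members, so all contrasts between the groups are descriptions and nothing below was tested.

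**Figure D1:**
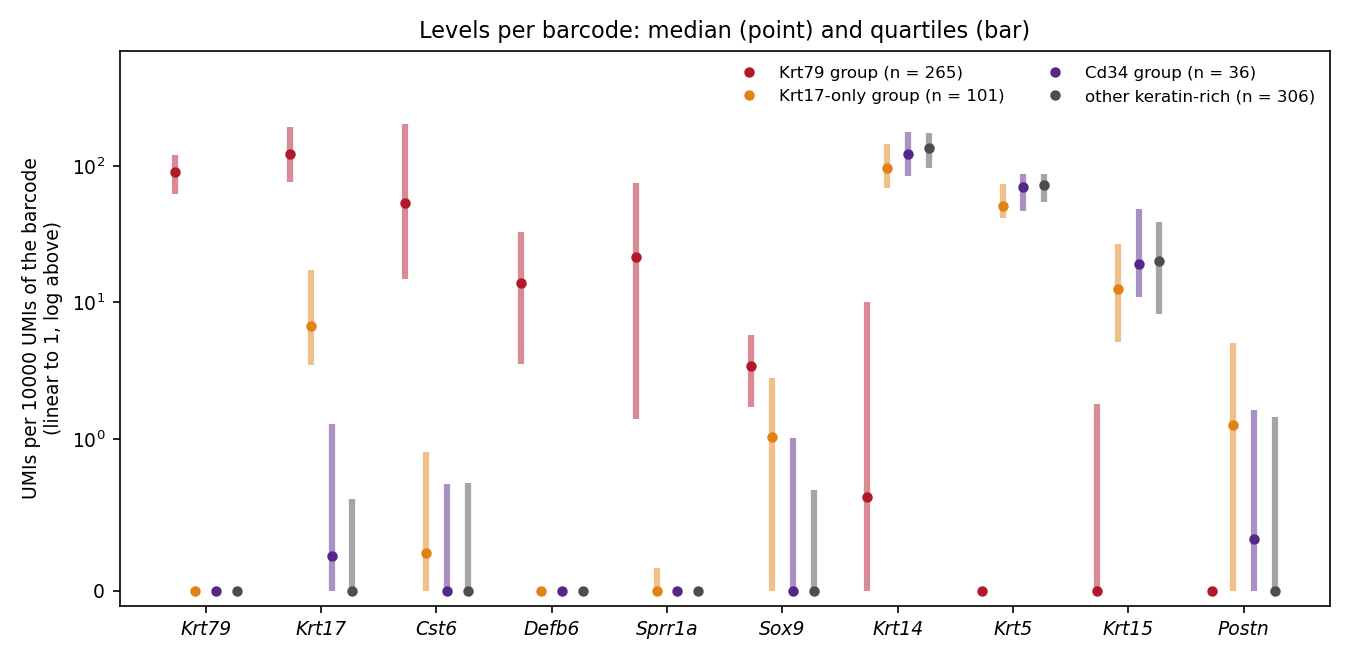
Levels of 10 genes per barcode, as UMIs per 10000 UMIs of the barcode (vertical axis linear to 1 and logarithmic above), with points at the median and bars from the lower to the upper quartile. Krt79, Krt17, Krt5 and Krt14 are genes of the rule, so gaps in them are fixed by it. Outside the rule, the Krt79 group stands apart in Cst6, Defb6 and Sprr1a and has a median of 0 for Krt15.

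The label was checked against markers. Lgr5 was not seen in the Krt79 group (0 of 265 barcodes, which allows a share of up to 1.13% by 3 counts of the total) nor in the Cd34 group (0 of 36, up to 8.33%). These limits are for barcodes with a UMI, not for cells that express the gene. It had 11 UMIs in 6 Krt17-only barcodes (5.94%), 5 UMIs in 3 other keratin-rich barcodes (0.980%), and was found in 14.8% of fibroblast barcodes and in 0 of 204 T cell barcodes (median 3661 UMIs). The summed level of 19 outer bulge genes other than Cd34 was mostly Krt15 in the Cd34, Krt17-only and other keratin-rich barcodes. Krt15 is a keratin of basal cells as well. Without Krt15 the sum was 720 CPM (counts scaled to a total of 1000000 UMIs) in the Cd34 group and 565 CPM in the other keratin-rich barcodes. It was 979 CPM in the Krt17-only group and 857 CPM in the Krt79 group. Of 13 of these genes measured in the Cd34 group against the other keratin-rich barcodes, none was 2-fold apart. Since 37 of 47 Cd34 barcodes also rest on 1 UMI, the markers do not set them apart as bulge cells, and they are called the Cd34 group. The Krt79 group carried upper follicle genes besides Krt79 and Krt17, which the next paragraphs describe.

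In the Krt79 group, genes of the upper follicle and of the outermost living epidermis stood far above the other keratin-rich barcodes, and genes of the basal layer far below. Of 11694 genes with at least 10 UMIs in the pair, 698 (5.97%) were higher by 2-fold or more and 909 (7.77%) lower by as much, on log2 of CPM plus 5. The median difference over all these genes was -0.12, so values are read against that shift. Scaling by TMM factors moved the split to 838 higher and 758 lower, and scaling by medians of ratios to 858 and 770.

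Of 13 upper follicle genes measured outside the rule, 9 were higher, 1 was lower and the median difference was 3.07. Cst6, which encodes the protease inhibitor cystatin M/E, had the highest level of them in the Krt79 group, at 16214 CPM against 55.9, a ratio of 290 (95% interval 262 to 322). Per barcode it had a median of 53.3 UMIs per 10000 (0 to 1863) in the Krt79 group and a median of 0 (0 to 18.01) in the other barcodes, so the groups overlapped at the low end. A Cst6 UMI was present in 95.8% and 46.1% of barcodes, and in 6.37% of the shallower T cell barcodes. Summed over T cell barcodes Cst6 stood at 59.2 CPM, not below its summed level in the other keratin-rich barcodes. These T cell UMIs lay in only 13 of 204 barcodes, so few barcodes set that level. Whether Cst6 in the other keratin-rich barcodes lay above that of T cell barcodes at equal depth was not tested. Defb6, a beta-defensin, stood at 2381 CPM against 5.04 (ratio 472, 336 to 686), with a UMI in 88.3% against 2.61% of barcodes and 1.96% of T cell barcodes. T cell barcodes had 19.3 CPM of Defb6. Sprr1a, a small proline-rich protein of the cornified envelope, stood at 4984 CPM against 16.3 (ratio 305, 252 to 372). Cst6 lies on chromosome 19 from 5344705 to 5349574, Defb6 on chromosome 8 from 19225478 to 19228209 and Sprr1a on chromosome 3 from 92483952 to 92485895 (GRCm38), all protein-coding.

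Regulators known from this compartment were also higher, at much lower levels. Sox9, a transcription factor needed for the follicle's outer root sheath and stem cells, stood at 405 CPM against 44.0 (ratio 9.21, 8.11 to 10.5), with a UMI in 93.6% against 33.3% of barcodes and 2.45% of T cell barcodes. Gata6, a transcription factor of the sebaceous duct, stood at 72.0 against 2.60 CPM. Prdm1, a transcriptional repressor, stood at 107 against 4.43 CPM, and Plet1, a surface protein of the upper isthmus, at 842 against 110 CPM. Lrig1 and Lgr6 of the same list did not follow. Lrig1 stood at 27.1 against 30.9 CPM, and Lgr6 was 18.7-fold lower (9.70 to 41.2) at 2.36 against 44.2 CPM. After thinning every barcode to 5000 UMIs, Sox9 was seen in 78.0% of the Krt79 group, 43.9% of the Krt17-only group, 27.8% of the Cd34 group and 17.6% of the other barcodes, so the order was the same at equal depth. Thinning left out 11, 3, 0 and 11 shallower barcodes of these groups.

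Genes of the granular and cornified layers formed the second large block. Of 15 measured, 14 were higher and 1 lower (median 3.48). Cdsn, the corneodesmosome protein corneodesmosin, had 224 CPM against 3 UMIs in all other keratin-rich barcodes (ratio 489, 167 to 2376). A Cdsn UMI was present in 28.3% of Krt79 barcodes. Within the group Cdsn stood at 1215 CPM in cluster 5, a cluster of granular genes described below, beside 91.4 CPM in cluster 3 and under 5 CPM in clusters 1 and 2. The kallikreins Klk7 and Klk5, serine proteases that cut corneodesmosomes, stood at 1100 against 2.90 CPM and 237 against 2.14 CPM, and Spink5, which encodes their inhibitor LEKTI, at 1032 against 22.8 CPM. Klk7 (43811294 to 43816359) and Klk5 (43841971 to 43851181) lie close together on chromosome 7, and Crct1 (603 against 2.75 CPM) lies on chromosome 3 from 93014205 to 93015687, on the same chromosome as Sprr1a. Crct1 was likewise unevenly spread, with a UMI in 41.5% of Krt79 barcodes and 3118 CPM in cluster 5 beside 284 CPM in cluster 3. Slurp1, a secreted Ly6-family protein, had 212 CPM against 2 UMIs (ratio 693, 191 to 5733). Calml3, a calmodulin-like protein of epithelia, stood at 372 against 2.90 CPM, and Ly6g6c, a Ly6-family gene, at 1877 against 60.2 CPM.

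Spinous genes were split. Of 12 measured, 6 were higher, 1 lower, and the median was 1.10. Krtdap stood at 5904 against 757 CPM, Sbsn at 4378 against 249 CPM, and Calm4 at 3573 against 382 CPM. Krt10, the main suprabasal keratin, stood at 2817 against 1430 CPM, under a 2-fold difference on this scale. Its usual partner Krt1 stood at 461 against 886 CPM. Per barcode, Krt10 had a median of 8.35 per 10000 in the Krt79 group and 1.49 in the others, and Krt1 of 0 and 0.170. In cluster 6, a cluster led by Krt1 and described below, Krt10 stood at 7440 CPM and Krt1 at 5152 CPM. It held 31 of the 306 other barcodes and 0 of the Krt79 group. The part of cluster 6 in these summed levels was not tested. Krt77, a suprabasal keratin, was higher at 1107 against 99.8 CPM (ratio 11.1, 10.2 to 12.1), as was Krt80 at 53.6 against 6.88 CPM. Krt23 had 191 CPM against 3 UMIs (ratio 416, 142 to 2020). The stress keratins Krt6a (36.3 against 32.4 CPM) and Krt16 (82.8 against 75.5 CPM) had intervals of the ratio that include 1. Those intervals hold counting error only, and a Krt6a UMI was present in 4.91% against 12.7% of barcodes.

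Some defence, lipid and retinoid genes were also higher. Of 10 antimicrobial genes measured, 7 were higher and 1 lower (median 1.82), among them Defb1 at 118 against 27.7 CPM and S100a9, a subunit of calprotectin, at 51.0 against 0.917 CPM. Without cluster 5 the S100a9 difference was 0.34 and the antimicrobial median 0.71. Of 25 lipid and cholesterol synthesis genes, 9 were higher and 0 lower (median 0.74), led by the epidermal lipoxygenase Alox12e at 131 against 1.22 CPM (ratio 107, 54.0 to 250), and including squalene epoxidase Sqle at 107 against 23.4 CPM. Of 12 sebaceous gland genes measured, 4 were higher and 0 lower (median 0.59): Elovl4 (470 against 25.1 CPM), Dgat2 (136 against 5.65 CPM), Ldhb and Krt7. The gland's defining genes Pparg, Elovl3, Mc5r, Awat1 and Fads2 had no UMI in any of the 4 groups, and the desaturase Scd1 stood at 24.2 CPM in the Krt79 group against 38.7 CPM in the others. Of 13 sterol and retinoid handling genes, 5 were higher and 1 lower (median 0.06). Among the higher ones was Crabp2, which encodes a binding protein of retinoic acid, at 196 against 4.43 CPM (ratio 44.2, 30.5 to 66.4).

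Basal genes outside the rule were lower too, against barcodes that the rule chose through Krt5 and Krt14. Of 15 interfollicular basal genes measured, 13 were lower and 1 higher (median -2.88), and of 22 hemidesmosome and basement membrane genes 14 were lower and 0 higher (median -1.54). Krt15 stood at 451 against 2707 CPM. Col17a1, the hemidesmosome collagen, was 13.2-fold lower (11.8 to 14.9), with a UMI in 17.7% against 99.3% of barcodes. The laminin receptor integrins Itga6 and Itgb4 stood at 65.7 against 492 CPM and 16.8 against 155 CPM. Igfbp3, a binding protein of insulin-like growth factors, had 4 UMIs against 1626 (236-fold lower, 92.1 to 869), and the alarmin Il33 had 1 UMI against 522 (304-fold lower, 54.2 to 12011). Krt5, at 405 against 7753 CPM, and Krt14, at 1430 against 14988 CPM, are genes of the rule, which required them of the other barcodes. Within the Krt79 group, where it did not, Krt5 had a median of 0 and a highest value of 65.0 per 10000.

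Signalling genes differed by pathway. Of 23 WNT ligands and receptors measured, 12 were lower and 3 higher (median -1.19). Wnt3 (3.15 against 102 CPM), Wnt4 (48.9 against 316), Wnt7b (4.99 against 68.9) and Wnt10a (10.5 against 127) were lower, while Wnt11 (49.9 against 8.86), Fzd3 and Fzd7 were higher. Of 7 WNT antagonists 1 was lower and 0 higher (median 0.07), and of 7 WNT feedback targets 2 were lower and 0 higher (median -0.31). Of 22 BMP and TGF-beta genes, 8 were lower and 3 higher (median -0.30). The ligand Bmp4 stood at 5.52 against 62.2 CPM, the ligand Bmp7 at 67.01 against 20.8 CPM, the antagonist follistatin (Fst) at 326 against 87.9 CPM, and the inhibitor Id4 at 121 against 15.4 CPM beside Id3 at 85.7 against 266 CPM. Of 7 hedgehog genes 2 were lower and 0 higher (median -0.62), namely the transducer Smo and the co-receptor Gas1.

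Among 13 genes of the EGF receptor and its ligands, 3 were higher and 2 lower (median 0.59). Epiregulin (Ereg) had 197 CPM against 3 UMIs (ratio 429, 146 to 2084) and amphiregulin (Areg) 380 against 63.1 CPM. Among 11 Notch genes 3 were higher and 2 lower (median 0.22): the receptors Notch2 (95.9 against 23.5 CPM) and Notch3 (40.2 against 5.81 CPM) and the feedback gene Nrarp were higher, and the ligands Jag2 and Dll1 lower. Among 15 genes of the IL1 family 2 were higher and 3 lower (median -0.08), with the antagonist Il1f5 at 153 against 9.93 CPM and the decoy receptor Il1r2 at 1.58 against 77.9 CPM. Of 21 cell junction genes, 6 were higher and 4 lower (median 0.43). Desmocollin Dsc1 (222 against 3.51 CPM) and the claudin Cldn4 (174 against 3.97 CPM) were higher, and the gap junction gene Gja1 (5.78 against 275 CPM) and the desmogleins Dsg2 and Dsg3 lower.

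Of 20 proliferation genes 18 were lower and 0 higher in the Krt79 group (median -2.11), with the cell cycle gene Mki67 at 15.2 against 154 CPM. Cluster 4 of the keratin-rich barcodes, described below, was led by cell cycle and Langerhans cell genes and held 59 other barcodes beside 1 of the Krt79 group. Without it and a small cluster of T cell genes (clusters 4 and 7), the proliferation median was -0.40. Markers of Langerhans and dendritic cells moved in parallel: 7 of 9 were lower and 1, Epcam, was higher (median -3.56), but the median was 0.38 without those clusters. The Langerhans gene Cd207 had 1.05 against 87.2 CPM. Cluster 4 was itself led by cell cycle genes, so a smaller proliferation difference without it follows from that choice. In cluster 4 Cd207 was seen in 13.8% and the cell cycle gene Ube2c in 85.1% of barcodes. The part of Langerhans cell RNA in the proliferation difference was not tested. Immediate early and heat shock genes, which collagenase digestion can raise, had 5 of 22 higher and 2 lower (median 0.20), including Hspb1 at 4516 against 1121 CPM and Hspa1a at 2573 against 995 CPM. Their part in the other differences was not tested.

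**Figure D2:**
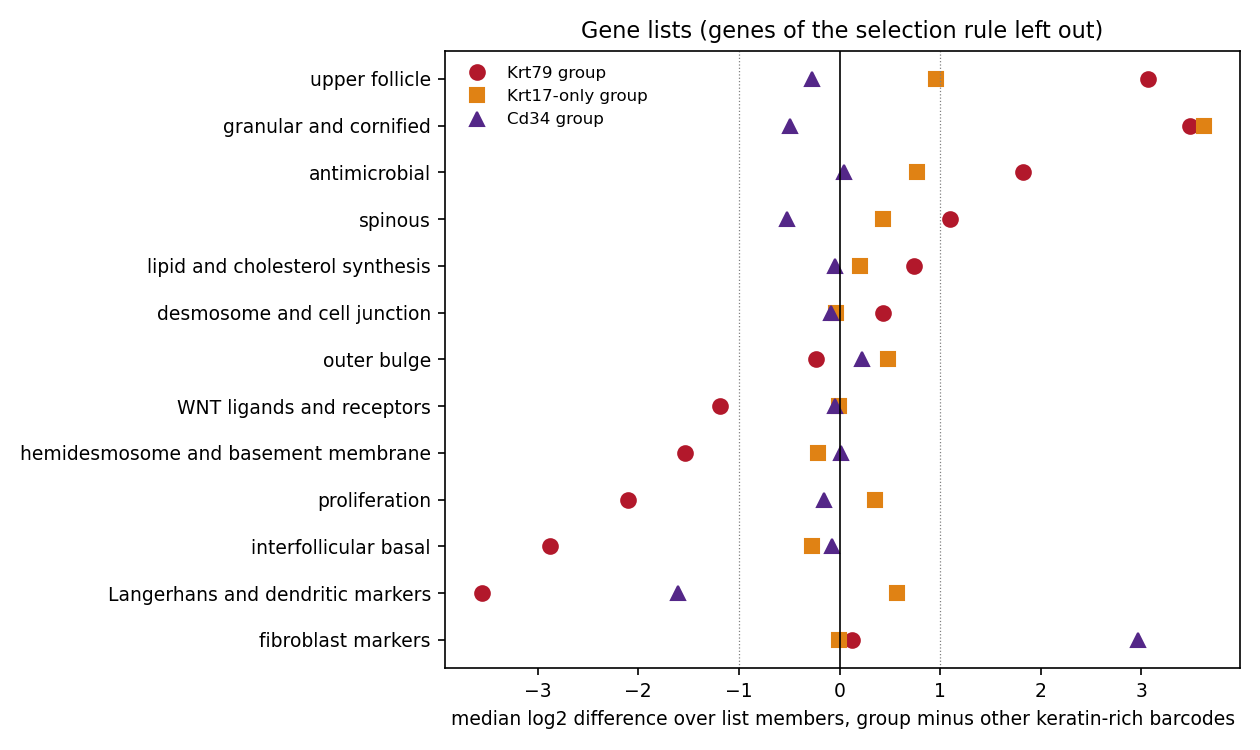
Median log2 difference in CPM plus 5 over the measured members of 13 gene lists, for each of 3 groups minus the other keratin-rich barcodes, with dotted lines at a 2-fold difference. Granular genes lie at 3.48 in the Krt79 group and 3.62 in the Krt17-only group, the latter from 4 barcodes. Fibroblast markers lie at 2.96 in the Cd34 group.

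All 719 keratin-rich barcodes were clustered without the genes of the rule, which gave 8 clusters. Clusters 2, 3 and 5 held 244 of the 265 Krt79 barcodes (92.1%, 88.1 to 95.03), 8 of the 11 overlap barcodes, 6 of 101 Krt17-only barcodes, 1 of 36 Cd34 barcodes and 2 of 306 others. A further 18 Krt79 barcodes lay in cluster 1. That cluster was led by Sostdc1, Vsnl1, Fst and Ptn and was shared with 53 Krt17-only, 8 Cd34, 1 overlap and 66 other barcodes. Cluster 4, led by Cd74, Cd207 and cell cycle genes at a median of 34331.5 UMIs, held 1 Krt79, 24 Krt17-only, 8 Cd34, 2 overlap and 59 other barcodes. Cluster 6, led by Krt1, Mt4 and Krt16, held 6 Krt17-only, 5 Cd34 and 31 other barcodes. Cluster 7, led by T cell genes, held 12 barcodes. These clusters are called by number and leading genes only.

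**Figure D3:**
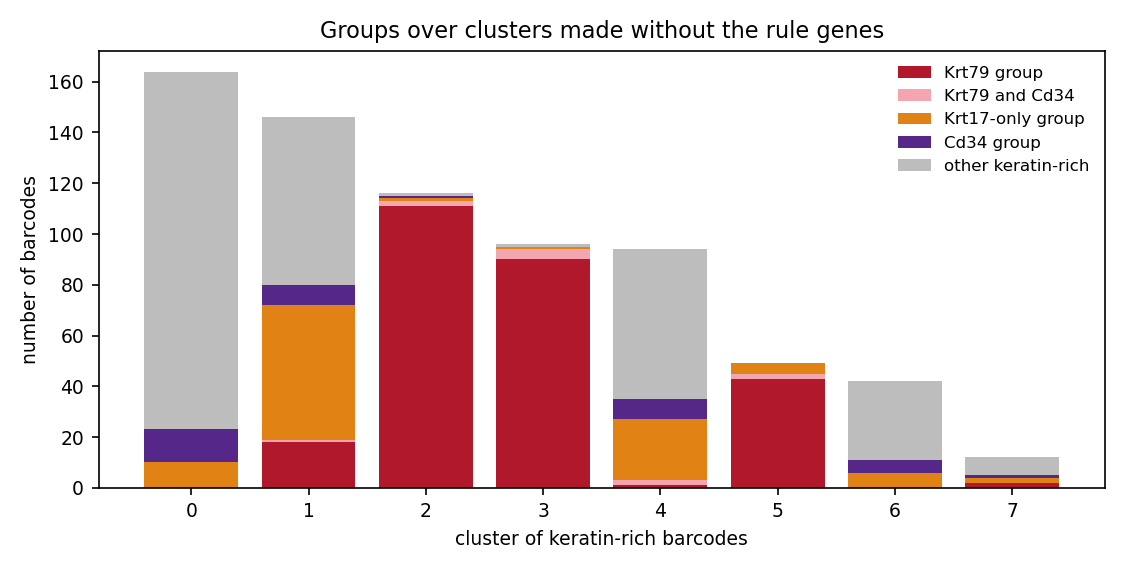
Number of keratin-rich barcodes (vertical axis) in each of 8 clusters (horizontal axis), coloured by group. Clusters 2, 3 and 5 are nearly all Krt79 barcodes, cluster 1 is shared between the Krt17-only, other, Krt79 and Cd34 barcodes, and the Cd34 barcodes follow the others.

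Within the Krt79 group the clusters formed a series from basal-keratin-bearing to granular barcodes. Krt5 stood at 3115 CPM in the 18 barcodes of cluster 1, 70.7 in the 111 of cluster 2, 21.0 in the 90 of cluster 3 and 6.74 in the 43 of cluster 5. Krt14 stood at 7503, 1467, 44.96 and 101 CPM in the same order, and Krt15 at 2051, 441, 149 and 11.8 CPM. Col17a1 went from 513 CPM in cluster 1 to 0 UMIs in cluster 5. Basal genes thus remained in part of the Krt79 group, and its low mean levels cover a wide range.

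Differentiation genes ran the other way. Sprr1a stood at 24.99, 1787, 5832 and 14081 CPM in clusters 1, 2, 3 and 5, and Klk7 at 45.4, 439, 1128 and 3373 CPM. Loricrin (Lor), the main protein of the cornified envelope, stood at 2205 CPM in cluster 5, beside 70.3 in cluster 3, 9.73 in cluster 2 and 2.27 in cluster 1. Ereg followed it, with 1090 CPM in cluster 5 and 71.1 in cluster 3. Krt10 was highest in cluster 3 at 4759 CPM, and Alox12e in cluster 2 at 251 CPM against 16.8 in cluster 5.

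Some genes did not follow the series. Sox9 stood at 670, 433, 307 and 399 CPM and Gata6 at 100, 70.7, 60.9 and 80.9 CPM in clusters 1, 2, 3 and 5, so both were present throughout. Defb6 was lower in cluster 3 (1352 CPM) than in clusters 2 (3679 CPM) and 5 (3445 CPM). Cst6 stood at 170 CPM in cluster 1, 12378 in cluster 2, 11347 in cluster 3 and 49398 in cluster 5. The clusters were made from these genes' own counts, so the order is a description.

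**Figure D4:**
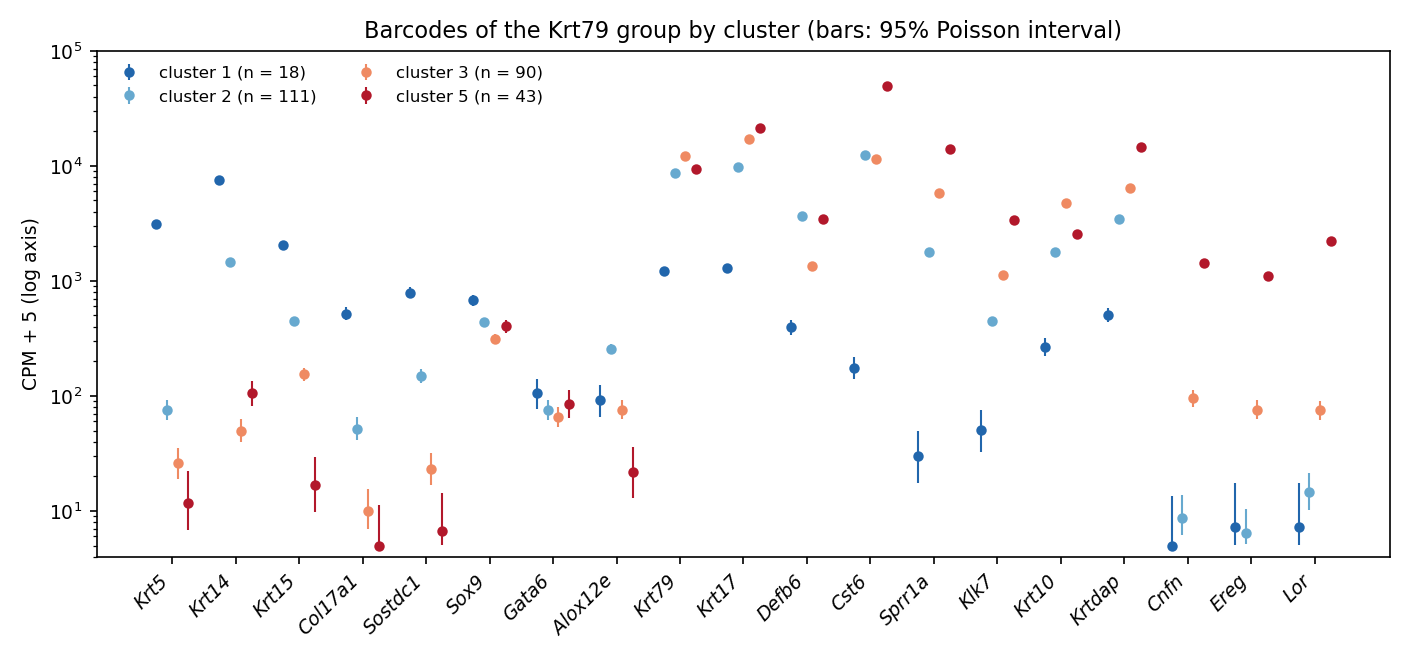
CPM plus 5 (log axis) of 19 genes in the Krt79 barcodes of clusters 1, 2, 3 and 5, with 95% Poisson intervals of the summed counts. Krt5, Krt15 and Col17a1 at the left are lower from each cluster to the next, Sox9 and Gata6 vary far less, and Sprr1a, Klk7 and Lor reach their highest levels in cluster 5.

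The Krt17-only group was closer to the other keratin-rich barcodes. Of 11584 genes, 178 (1.54%) were higher by 2-fold or more and 13 (0.112%) lower by as much. Of 15 interfollicular basal genes 1 was higher and 0 lower (median -0.27), and Col17a1 stood at 853 against 1028 CPM. Krt5 (5970 against 7753 CPM) and Krt14 (12067 against 14988 CPM) are genes of the rule. Most Krt17-only barcodes met the keratin limit mainly through them, so likeness to the others in basal genes is not free of that choice. Of 14 granular genes 12 were higher and 0 lower (median 3.62), but these came from 4 barcodes of cluster 5, where Lor stood at 18677 CPM. Without cluster 5, 0 were higher and 2 lower (median -0.31), and the genes at least 2-fold higher numbered 51. Without clusters 4 and 7 they numbered 369.

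Follicle genes were higher at modest folds. Of 15 outer bulge genes 4 were higher and 0 lower (median 0.48), and without cluster 5 these were 5 and 0 (median 0.51). Of 13 upper follicle genes 6 were higher and 0 lower (median 0.96), but without cluster 5 these were 4 and 1 (median 0.23), so much of that list's median rested on the 4 barcodes. Sox9 stood at 163 against 44.0 CPM (ratio 3.71, 3.19 to 4.31). Fst stood at 342 against 87.9 CPM (3.90, 3.51 to 4.33), the WNT and BMP antagonist Sostdc1 at 421 against 151 CPM (2.78, 2.55 to 3.03) and the matricellular protein Postn at 253 against 122 CPM (2.08, 1.87 to 2.30). Postn was just past 2-fold and fell below it under 5 alternatives, and Sostdc1 did so under 1. Lhx2, a transcription factor of bulge and hair germ cells, had 43 UMIs in 7 barcodes against 3 UMIs in 3 barcodes (ratio 33.9, 10.9 to 171). Ccl20, a chemokine, stood at 178 against 8.86 CPM, but 211 of its 493 UMIs lay in 1 barcode.

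Cluster 1 held 53 of the 101 Krt17-only barcodes, and there Lhx2 stood at 39.5 CPM, Sox9 at 326 CPM, Fst at 759 CPM and Sostdc1 at 844 CPM. The 66 other keratin-rich barcodes of that cluster had 0 Lhx2 UMIs, 193 CPM of Sox9, 548 CPM of Fst and 804 CPM of Sostdc1. Fst and Sostdc1 were therefore at similar levels on both sides of the Krt17 limit within cluster 1. The 24 Krt17-only barcodes of cluster 4 carried Cd207 at 365 CPM and Mki67 at 339 CPM. Of Krt17-only barcodes 8.91% were among the top doublet scores, beside 3.40% of the Krt79 group and 4.25% of the others. The share over all kept barcodes was set to 9.16% by the cutoff and is not a measured doublet rate.

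The Cd34 group was near the other keratin-rich barcodes in most gene lists, higher in fibroblast genes and lower in Langerhans cell genes. Of 11292 genes, 179 (1.59%) were higher by 2-fold or more and 56 (0.496%) lower by as much. Krt15 stood at 2587 against 2707 CPM, Col17a1 at 941 against 1028 CPM and Sox9 at 59.6 against 44.0 CPM, while Krt5 (7106 against 7753 CPM) is a gene of the rule on both sides. Of 13 outer bulge genes 0 were higher and 0 lower (median 0.22), and of 13 upper follicle genes 0 were higher and 2 lower. Fibroblast markers had 8 of 10 higher and 0 lower (median 2.96). Among genes outside that list, complement C3 stood at 142 against 5.04 CPM (ratio 28.2, 19.3 to 42.5), the hyaluronan synthase Has1 at 97.7 against 6.57 CPM and Gfpt2 at 63.3 against 2.75 CPM. Within the list, the peptidase inhibitor Pi16 stood at 142 against 4.58 CPM and the proteoglycan decorin (Dcn) at 394 against 33.8 CPM. Of 9 Langerhans and dendritic cell markers 6 were lower and 0 higher (median -1.61), with Cd207 at 16.8 against 87.2 CPM. That median was -0.17 without clusters 4 and 7 and -0.05 with a Cd34 minimum of 2 UMIs, and cluster 4 held 8 of the 36 Cd34 and 59 of the 306 other barcodes. The part of Langerhans cell RNA in the other differences was not tested.

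These fibroblast counts lay in few barcodes. Over the Cd34 group the summed fibroblast markers ranged from 0 to 7746 CPM per barcode with a median of 65.0, close to the median of 60.8 in the others, and 8 of 36 barcodes had 10 or more UMIs of the 6 fibroblast genes Dcn, Lum, Mfap5, Clec3b, Dpt and Serpinf1. Without those 8, the genes at least 2-fold higher numbered 16 and those lower 115, and the fibroblast median was -0.17 with 0 higher. Top doublet scores were held by 13.9% of the group. Leaving all top-scored barcodes out gave 48 higher and 56 lower.

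Cd34 was set beside fibroblast RNA directly. A Cd34 UMI was found in 94.2% of 6838 fibroblast barcodes, 6.54% of keratin-rich barcodes and 1.96% of T cell barcodes. Per 100 UMIs of the 6 fibroblast genes there were 4.86 Cd34 UMIs (3.87 to 6.03) in keratin-rich barcodes and 5.06 (5.02 to 5.11) in fibroblast barcodes, a ratio of 0.959 (0.767 to 1.19). With Pdgfra, Pdgfrb, Fbln1, Pi16 and Sfrp2 in their place there were 18.03 (14.2 to 22.7) and 46.5 (46.1 to 47.0), a ratio of 0.388 (0.310 to 0.479). Neither ratio was above 1, though the interval of the first reaches 1.19. Both ratios cover all keratin-rich barcodes. In the 47 Cd34 barcodes alone there were 8.78 Cd34 UMIs (6.96 to 10.9) per 100 of the 6 genes. Per 100 of the genes put in their place there were 30.4 (23.6 to 38.8). The 47 were chosen for Cd34, which raises both values, and 35 of them had a UMI of the 6 genes. Cd34 made by keratinocytes and Cd34 from fibroblast RNA cannot be told apart in these 47 barcodes.

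**Figure D5:**
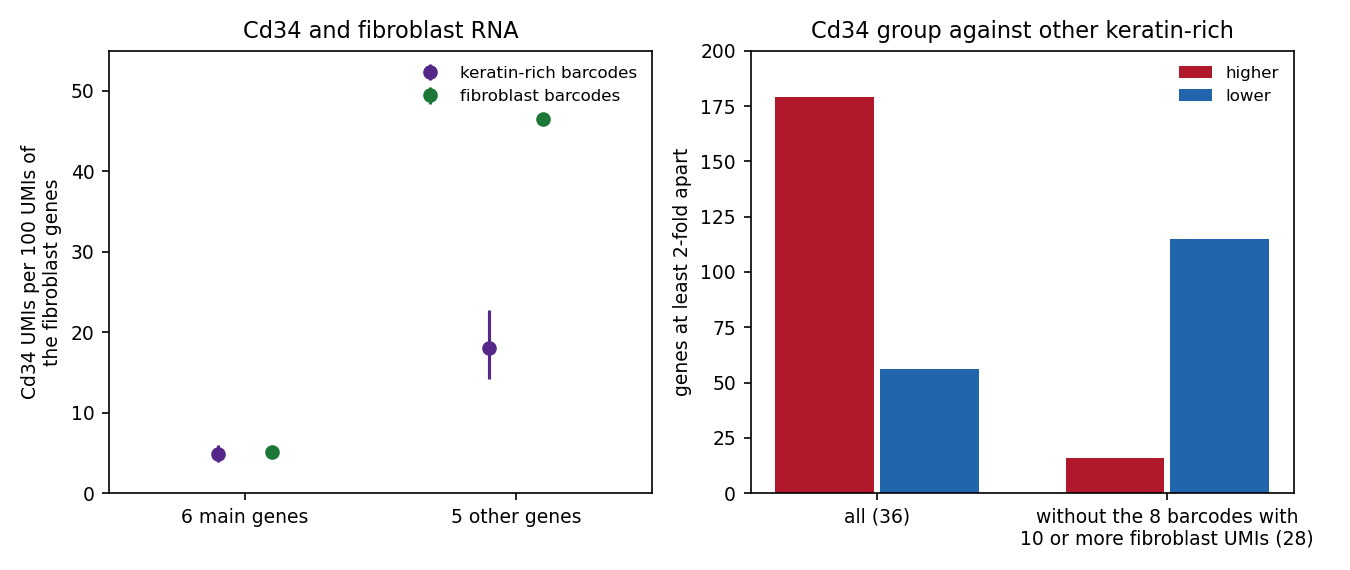
Left, Cd34 UMIs per 100 UMIs of 2 sets of fibroblast genes in keratin-rich and fibroblast barcodes, with 95% intervals. Right, number of genes at least 2-fold apart between the Cd34 group and the other keratin-rich barcodes, with all 36 Cd34 barcodes and without the 8 richest in fibroblast UMIs, where the higher genes drop from 179 to 16.

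Set against each other, the Krt79 and Cd34 groups differed in 772 genes higher in the former (7.29% of 10594) and 1107 lower (10.4%), with a median over all genes of -0.11. TMM factors gave 926 higher and 927 lower, and medians of ratios 943 and 959. Sprr1a stood at 4984 against 4.65 CPM, Defb6 had 2381 CPM against 3 UMIs (ratio 853, 292 to 4135), and Cst6 stood at 16214 against 45.6 CPM (ratio 355, 269 to 481). On the other side Igfbp3 stood at 1.05 against 192 CPM, Ndufa4l2, a mitochondrial protein, at 5.26 against 335 CPM, the prostaglandin synthase Ptgs2 at 5.26 against 225 CPM and Ly6a at 14.5 against 370 CPM. The other keratin-rich barcodes, compared with the same Krt79 barcodes, had Ndufa4l2 at 428 CPM, Ptgs2 at 149 CPM and Ly6a at 296 CPM.

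Pooled, the 413 members differed from the others in 446 genes higher (3.64% of 12252) and 90 lower (0.735%). The higher ones carried the Krt79 group's profile in diluted form, with Cst6 at 8458 against 55.9 CPM and Defb6 at 1188 against 5.04 CPM. Among the lower ones were Stfa1, a stefin, at 11.9 against 56.7 CPM (4.76-fold lower, 3.78 to 6.04), Ndufa4l2 at 128 against 428 CPM, the metallothionein Mt4 at 29.2 against 102 CPM and Thy1 at 33.2 against 102 CPM. Stfa1 and Mt4 were unevenly spread over the keratin-rich barcodes. In cluster 6, which held 31 of the other barcodes, they stood at 191 and 521 CPM, beside 22.9 and 35.1 CPM in the remaining keratin-rich barcodes. The part of cluster 6 in their differences was not tested. Of the 413 members 265 were Krt79 barcodes, so this pooled contrast mixes unlike groups.

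The rule was also applied to the wound libraries, of 138046172 UMIs at day 2 and 102345327 at day 7. At day 2, 0 of 7945 kept barcodes qualified, which by 3 counts of the total allows a share of up to 0.0378%, and at day 7, 25 of 5142 did (0.486%). Of these 25, 12 had Krt79, 9 were Krt17-only, 5 had Cd34 and 1 had both. Wound bed and non-lesional skin are different tissues, and tissue, time and library cannot be told apart in these shares. The libraries shared 23, 24 and 14 barcode sequences pairwise, of which members held 0 with day 2 and 1 with day 7.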

How the data were processed

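The authors deposited raw UMI counts per gene and barcode for 27998 genes, as filtered matrices aligned to mm10. Per the submitters' processing notes these came from Cell Ranger 3.0.2 followed by Seurat 3.0, whereas per the file headers the matrices were written by Cell Ranger 5.0.0; this was not resolved. Of the gene identifiers 27645 matched GENCODE M21 on GRCm38, the source of positions. The non-lesional library held 10857 barcodes, and 10297 passed the gene and mitochondrial limits.

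UMIs were summed per group and scaled to a total of 1000000 per group (CPM). Log2 differences used a pseudocount of 5 CPM, and a gene was measured with at least 10 UMIs in a pair. Called means at least 2-fold on that scale. Ratios carry conditional binomial, shares Clopper-Pearson and sums Poisson intervals at 95%, and a count of 0 is given with a limit of 3 counts of the total. Summing and intervals were tried on simulated Poisson counts. These hold counting error only, so the spread between barcodes was not covered. Lists with genes of the rule were read without them. Barcodes of 1 library are not replicates, so no p-values were computed.

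The members and the 34 gene lists were chosen with earlier results of these data known. Named genes were the 12 with the highest and lowest log2 difference for members against others and for the Krt79 against the Cd34 group, and the 8 highest of each of those groups against the others. Each had at least 50 CPM and a UMI in at least 10% of barcodes of the higher group, and at least 0.2 of its level in non-keratin barcodes. To these were added up to 2 genes per list and direction, keratins at 50 CPM or more and Lgr5. Not all of these are printed. Further list members, and all genes given for the Krt17-only group, were named after their values were seen. Fibroblast barcodes had at least 1% collagen UMIs, and T cell barcodes at least 3 UMIs of Cd3d, Cd3e and Cd3g.

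Doublets were scored with Scrublet in scanpy 1.11.5 and kept, with their removal as an alternative. The number of top scores was fixed beforehand at 0.8% of barcodes per 1000 deposited barcodes. Clusters used 2000 variable genes, 20 components, 20 neighbours and Leiden resolution 0.5. Python 3.11.15, numpy 2.4.6, scipy 1.17.1 and edgeR 4.0.16 (TMM factors only) were used. Alternatives were other limits of the rule, thinning, pseudocount, filter, weighting, scaling and clusters left out.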

Additional observations from a re-analysis of the deposited data

How the results depend on the processing

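Alternatives that left out clusters 4 and 7, cluster 5 or the fibroblast-rich Cd34 barcodes, and all alternatives of the 3 groups against the other keratin-rich barcodes, were chosen after seeing the data. No paired analysis was possible because each group is 1 library. Members numbered 484 and 374 with a Krt17 and Krt79 minimum of 2 and 10 UMIs, 303 after thinning to 5000 UMIs and 355 when the rule used 1 part of the UMIs and the values another. The Cd34 group numbered 10 with a minimum of 2 Cd34 UMIs, 13 after thinning and 26 in the split, so it depends on depth. The Krt17-only group numbered 172 and 70 with a Krt17 and Krt79 minimum of 2 and 10 UMIs. It numbered 43 after thinning and 71 in the split, so it depends on the limit and on depth as well. The share of the Krt79 group in its clusters moved little at another resolution and seed.

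Counts of genes at least 2-fold apart that changed by over 1.5 times were as follows, with the cause not tested. For members against others, genes lower numbered 34 and 219 (minimum of 2 and 10), 138 (Cd34 minimum of 2), 821 (thinned), 281 (split), 263 (pseudocount 1), 315 (barcodes weighted alike), 260 (without clusters 4 and 7) and 52 (without cluster 5), and genes higher 689 (thinned) and 807 (pseudocount 1). For the Krt79 against the Cd34 group, genes higher numbered 1388 (Cd34 minimum of 2), 2459 (thinned) and 1159 (pseudocount 1), and genes lower 1703 (pseudocount 1) and 608 (minimum of 50 UMIs). For the Krt79 group against others, genes lower numbered 1765 with pseudocount 1. For the Krt17-only group, higher and lower numbered 280 and 39 (minimum of 10), 451 and 963 (thinned), 278 and 75 (split), 414 and 118 (pseudocount 1), 369 and 58 (without clusters 4 and 7) and 51 and 21 (without cluster 5). Its lower genes numbered 8 without top doublet scores and 33 with barcodes weighted alike. For the Cd34 group, higher and lower numbered 760 and 850 (Cd34 minimum of 2), 16 and 106 (collagen limit of 0.2%), 1143 and 3191 (thinned), 397 and 462 (split), 387 and 450 (pseudocount 1), 74 and 153 (without clusters 4 and 7) and 16 and 115 (without the 8 fibroblast-rich barcodes). Its higher genes numbered 48 without top doublet scores and 74 with a minimum of 50 UMIs, and its lower genes 95 with barcodes weighted alike. The ratio of Cd34 per fibroblast UMI was 0.388 with the 5 other genes.

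Directions turned in 9 cases. Gfpt2 in the Cd34 group was -0.34 (collagen limit), -1.50 (thinned), -0.17 (without clusters 4 and 7) and -0.63 (without the 8 barcodes), where Dcn was -0.64 and the median of fibroblast markers -0.17. In the Krt79 group, Cd207 was 0.084 and the median of Langerhans and dendritic markers 0.38 without clusters 4 and 7. The median of granular and cornified genes in the Krt17-only group was -0.31 without cluster 5. Some differences kept their direction but were under 2-fold. In the Krt79 group these were Fst (0.79), Bmp7 (0.77), Fzd7 (0.59) and Ldhb (0.97) after thinning, and Nfatc1, at 0.99 (minimum of 10), 0.59 (thinned), 0.90 (split), 0.81 (weighted alike) and 0.95 (without clusters 4 and 7). List medians there were -0.86 (minimum of 10) and -0.21 (no minimum of UMIs) for WNT ligands and receptors, 0.20 (no minimum of UMIs) and 0.71 (without cluster 5) for antimicrobial genes, and, without clusters 4 and 7, 0.96 for spinous and -0.40 for proliferation genes. Mki67 was -0.90 without clusters 4 and 7, and S100a9 0.34 without cluster 5. In the Krt17-only group, Postn was 0.84 and 0.66 (minimum of 2 and 10), 0.55 (thinned), 0.74 (split) and 0.80 (without clusters 4 and 7), and Sostdc1 0.98 (thinned). In the Cd34 group, C3, Has1, Pi16 and the fibroblast median were 0.65, 0.30, 0.30 and 0.23 with the collagen limit of 0.2%, where Dcn was 0.61. They were 0.16, 0.79, 0.89 and 0.89 after thinning. Without the 8 barcodes C3, Has1 and Pi16 were 0.26, 0.31 and 0.18. Without clusters 4 and 7, Has1, Pi16 and the fibroblast median were 0.11, 0.27 and 0.27. The Langerhans median of the Cd34 group was -0.05 (Cd34 minimum of 2), -0.90 (split and weighted alike) and -0.17 (without clusters 4 and 7). Of the named values of single genes, 1842 were within their counting interval, 356 moved beyond it and 6 reversed. Genes under about 10 UMIs in a pair are limited by depth.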

Other observations

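The 12 day 7 barcodes with Krt79 are few, and their values are given beside all 276 of non-lesional skin with no test. Krt79 stood at 9197 CPM at day 7 and 9098 CPM in non-lesional skin, Defb6 at 2023 and 2323 CPM, Cst6 at 11484 and 16072 CPM, and Sox9 at 566 and 405 CPM. A single barcode carried 91.8% of the day 7 Cst6 UMIs, and without it Cst6 stood at 996 CPM. For Krt79, Defb6 and Sox9 the top barcode of each gene carried 54.8%, 40.6% and 49.3% of the UMIs. Without that barcode they stood at 8006, 1275 and 303 CPM, so Sox9 was then below its non-lesional level. Per barcode at day 7, Cst6 had a median of 8.89 per 10000 (0 to 1854) and was seen in 9 of 12. The basal keratin Krt14 stood at 8176 against 1393 CPM, and the wound keratins Krt6a and Krt16 at 633 against 35.1 CPM and 1572 against 83.0 CPM. Krt6a was seen in 5 and Krt16 in 7 of the 12 barcodes, and 1 barcode carried 75.8% of the Krt6a and 1 carried 74.5% of the Krt16 UMIs. For Krt14 the top barcode carried 51.8% of the UMIs, and without it Krt14 stood at 7590 CPM. The top barcode of Krt79, Krt14 and Krt16 had 122251 UMIs, beside a median of 9938.5 in the 12. Sprr1a stood at 338 against 5098 CPM, Plet1 at 145 against 854 CPM and Lor at 1 UMI against 369 CPM. The stefin Stfa3 stood at 833 against 29.5 CPM and was seen in 9 of 12 barcodes. Library, tissue and time cannot be told apart here.

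Gene lists not described above gave these counts in the Krt79 group against the other keratin-rich barcodes. Of 14 outer bulge genes 2 were higher (Sox9 and Nfatc1) and 5 lower (median -0.23), with Postn at 16.3 against 122 CPM and Col18a1 at 5.78 against 78.1 CPM. Of 5 inner bulge and companion layer genes 2 were higher and 1 lower (median 0.14), of 4 hair germ genes 1 was higher and 2 lower (median -0.18), and of 5 hair shaft and inner root sheath genes 1 was higher and 1 lower (median -0.38). Of 15 chemokines 2 were higher and 3 lower (median 0.17). Among markers of other cell types, 0 of 10 fibroblast genes were higher or lower (median 0.12), 3 of 7 T cell genes were lower (median -0.83), 1 of 2 dermal papilla genes was lower (median -0.52), and 1 of 6 macrophage and neutrophil genes was higher (median -0.01). Of 4 endothelial and mural genes 0 were higher or lower (median 0.22), the 1 melanocyte gene measured was neither (0.01), 1 of 2 Schwann cell genes was higher (median 0.61), and 0 of 7 Merkel cell genes reached the UMI minimum. Summed over the list, fibroblast markers stood at 84.9 CPM in the Krt79 group, 67.6 CPM in the Krt17-only group, 889 CPM in the Cd34 group and 72.4 CPM in the others.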
